A study of Homo sapiens with 4 samples.

Results

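The 10 genes described here are the 5 Rel subunits of the transcription factor NF-kB (NFKB1, NFKB2, RELA, RELB and REL), 4 regulators that restrain or modify it (NFKBIA, NFKBIZ, TNFAIP3 and BCL3) and its target ICAM1. They were chosen by gene symbol, taking the brightest probe set of each gene. All 10 were found, each with 1 probe set, among 18417 genes that had a probe set with 1 symbol. Total RNA came from MDA-MB-231 cells transfected with a FOXC1 expression plasmid (FOXC1 cells, 2 arrays) or with the control vector (vector cells, 2 arrays), and was hybridised to Affymetrix human gene arrays. MDA-MB-231 is an established human breast cancer line of mesenchymal appearance, and FOXC1 is a forkhead transcription factor. Both groups were grown in DMEM with 10% serum, penicillin and streptomycin and received plasmid with the same lipid reagent. The labels do not say whether the cells were clones, pools or transiently transfected. The transcript of the transfected gene is not analysed here, and the labels stand without that check. The series asked how FOXC1 changes gene expression in these cells.

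The NF-kB proteins bind DNA as dimers through a shared Rel homology domain. RELA, RELB and REL carry their own activation domains, whereas NFKB1 and NFKB2 are made as the precursors p105 and p100 and are processed to p50 and p52. In resting cells inhibitors of the IkB family hold the dimers in the cytoplasm, and a kinase complex, IKK, marks the inhibitors for destruction when cytokine or pathogen receptors are engaged. Many of the genes switched on in turn encode inhibitors of the same pathway, which forms a feedback loop, and MDA-MB-231 cells are known for NF-kB activity without added stimulus.

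The promoter sequences of these genes are shown because the family is known for binding its own genes. RefSeq promoter sequences (GRCh38.p14) were matched for 9 of the 10 genes, RELB having no entry in the table used, and the 250 bases before each start were searched on both strands for GGNNNTTCC, a core shared by many NF-kB sites, and for the longer NF-kB 10-base consensus. The core stood in 7 of the 9 windows, namely those of NFKB1, REL, NFKBIA, NFKBIZ, TNFAIP3, BCL3 and ICAM1, against 17.1% of all 27305 promoters. The consensus stood in 5 of them, against 9.57% of all promoters, and each of its matches overlapped a match of the core. The forkhead motifs GTAAACA and GTAAATA stood in 0 of the 9 windows, against 2.98% and 2.47% of all promoters. Over the 14239 promoters of measured genes the shares were 18.8% for the core and 11.05% for the consensus. For the forkhead motifs they were 2.07% and 1.65%. A match describes letters and does not show that a protein is bound there, and a window without one says nothing beyond its own letters. Whole windows are printed for ICAM1 (chr19:10270870-10271119, + strand), which changed most, and for NFKBIA (chr14:35404750-35404999, - strand), which like TNFAIP3 holds 2 core matches. They read 5′ to 3′ on the gene's strand, with matches of either motif in capitals.
ICAM1: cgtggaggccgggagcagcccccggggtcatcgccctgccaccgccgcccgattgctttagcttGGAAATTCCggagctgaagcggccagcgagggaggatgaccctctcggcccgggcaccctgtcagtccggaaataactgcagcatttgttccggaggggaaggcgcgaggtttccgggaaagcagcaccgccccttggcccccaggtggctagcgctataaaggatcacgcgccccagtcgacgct
NFKBIA: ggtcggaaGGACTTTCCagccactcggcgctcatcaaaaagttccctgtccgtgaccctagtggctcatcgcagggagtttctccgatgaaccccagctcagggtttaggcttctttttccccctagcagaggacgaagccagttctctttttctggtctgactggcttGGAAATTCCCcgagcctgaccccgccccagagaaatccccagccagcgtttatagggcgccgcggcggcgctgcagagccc

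The core match of ICAM1 began 186 bases before the start and those of NFKBIA 242 and 81 bases before it. For the other 5 genes the matches are shown with their flanks, so that the letters can be compared. TNFAIP3 holds 2 core matches, which began 67 and 55 bases before the start. For TNFAIP3 and BCL3 the transcript start used by the table lies inside the span that RefSeq gives to the gene.
NFKB1 (chr4:102501300-102501329, + strand): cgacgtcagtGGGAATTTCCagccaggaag
REL (chr2:60881518-60881546, + strand): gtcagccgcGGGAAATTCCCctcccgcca
NFKBIZ (chr3:101827757-101827786, + strand): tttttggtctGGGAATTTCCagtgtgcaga
TNFAIP3 (chr6:137867188-137867217, + strand): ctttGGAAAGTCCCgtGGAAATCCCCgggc
BCL3 (chr19:44748593-44748621, + strand): ggcgggtccaGGAAACCCCtggggcgtac

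Most of the 10 genes were higher in FOXC1 cells, by amounts that ran from small to 3.70-fold. With limma and an adjusted p of 0.05, 7 genes rose (NFKB1, NFKB2, RELB, REL, NFKBIZ, TNFAIP3 and ICAM1), BCL3 fell, and RELA and NFKBIA did not pass. Over all 18417 genes 15.9% were called higher, 15.5% lower and 31.4% in either direction. Brighter genes were called more often. With probe sets below the 50th percentile of signal filtered out, all 10 genes stayed in, 8 called higher and 1 lower. Of the 9326 genes left, 2474 were called higher and 2324 lower. The median log2 change was 0.27 over the 10 genes and 0.03 over all genes. Groups did not overlap in 9 of the 10 genes, against 63.5% of all genes. In 8 of them the FOXC1 arrays were above the vector arrays (37.1% of all genes) and in BCL3 below them (26.4%). Every value below is a linear PLIER signal, the authors' summary of a probe set, and every log2 change is FOXC1 minus vector on the scale of log2(signal + 16).

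**Figure D1:**
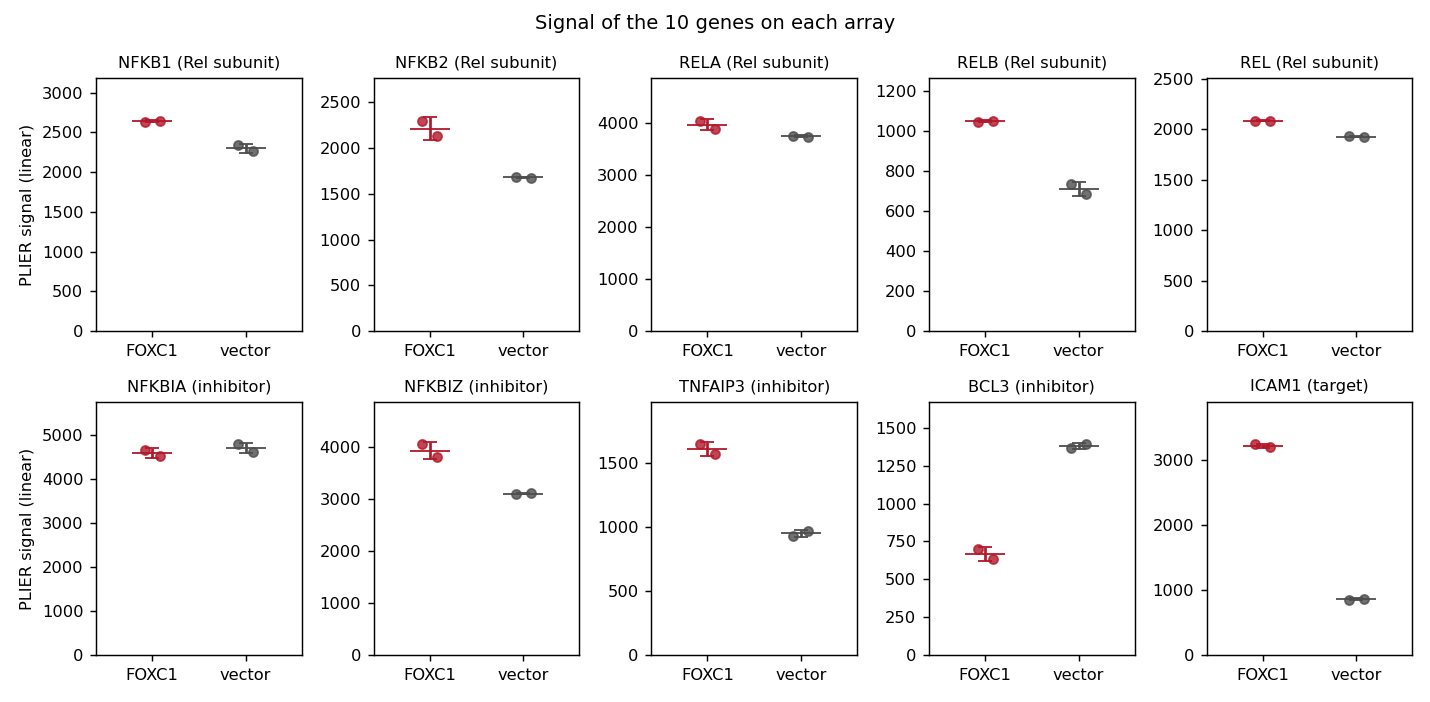
PLIER signal (linear axes from 0) of the 10 genes in FOXC1 and vector cells, with a point for each array and a bar at the mean ± SD (n = 2). ICAM1 sits near 3210 in FOXC1 cells and near 855 in vector cells, BCL3 near 667 and 1379, and the arrays of NFKBIA overlap.

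Among the Rel subunits the 2 genes of the alternative pathway, RELB and NFKB2, moved most. RELB, the partner of p52, had signals of 1047 and 1053 on the FOXC1 arrays, against 738 and 688 on the vector arrays. The 2 groups were well apart, and the rise was 1.46-fold (log2 0.55 ± 0.06 SE, limma adjusted p = 3.91e-07). NFKB2, which encodes p100 and p52, had 2299 and 2125 in FOXC1 cells, against 1685 and 1671 in vector cells. Both FOXC1 arrays were again above both vector arrays, with FOXC1 replicate 1 the higher, and the rise was 1.31-fold (log2 0.39 ± 0.05 SE, limma adjusted p = 8.49e-07).

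NFKB1, which encodes p105 and p50, the usual partner of RELA, had signals of 2636 and 2648 in FOXC1 cells, against 2338 and 2260.2 in vector cells. The groups did not overlap, and the rise was 1.15-fold (log2 0.20 ± 0.04 SE, limma adjusted p = 4.63e-04). The 95% interval of its log2 change ran from 0.12 to 0.28, below that of RELB, from 0.42 to 0.68. The interval of NFKB2, from 0.30 to 0.49, lay between them and overlapped that of RELB.

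REL and RELA differed least between the groups. REL, a subunit best known from lymphocytes, had 2086 and 2079.9 in FOXC1 cells, against 1929 and 1921 in vector cells. Replicates of each group nearly coincided, and the rise was 1.08-fold (log2 0.11 ± 0.04 SE, limma adjusted p = 0.0479). RELA, the main activating subunit in most cells, had 4050.4 and 3897 in FOXC1 cells, against 3762 and 3731 in vector cells. Both FOXC1 arrays were higher, but the difference did not pass (log2 0.08 ± 0.03 SE, limma adjusted p = 0.0662), and its 95% interval ran from 0.01 to 0.16.

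Both of these calls turned on the processing. The call of REL was lost when any 1 of the 4 arrays was left out, with adjusted p between 0.0573 (without FOXC1 replicate 2) and 0.256 (without vector replicate 2). It was also lost with each array centred on its median (adjusted p = 0.401), without a variance trend (0.124) and in a fit over all rows (0.0898). RELA passed without FOXC1 replicate 2 (adjusted p = 0.0197), with a block for replicate number (0.038) and when dim probe sets below the 25th (0.0468) or 50th (0.0358) percentile of signal were filtered out. With median centring the log2 change was 0.07 for REL and 0.04 for RELA. Each refit estimated its variances anew, so these adjusted p values may also differ by that step. For ICAM1 the limma adjusted p was 5.72e-18 as reported and 3.76e-101 with median centring, at log2 changes of 1.89 and 1.85.

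**Figure D2:**
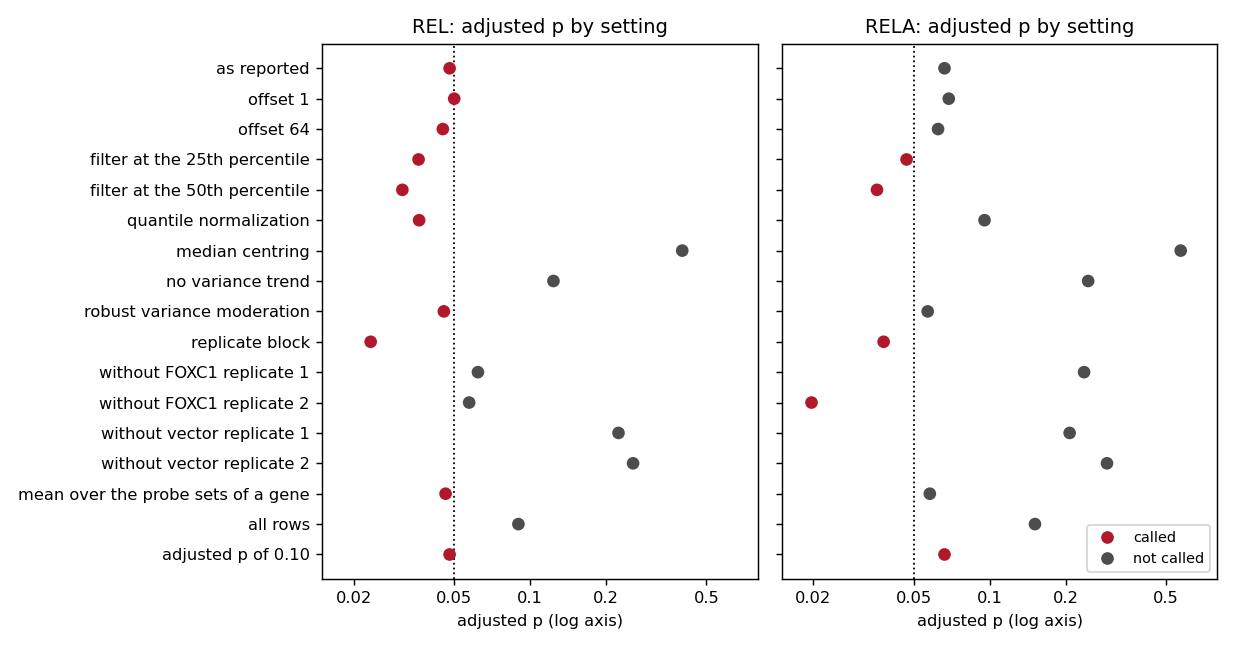
Adjusted p from limma (log axis) of REL and RELA as reported and under each of the 16 alternatives, with the threshold of 0.05 as a dotted line; for the alternative threshold of 0.10 a point is coloured by that limit. REL runs from 0.0233 to 0.401 and RELA from 0.0197 to 0.572, on both sides of the line.

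The 4 regulators moved in different directions. TNFAIP3, which encodes A20, a ubiquitin-editing enzyme that shuts off signalling upstream of IKK, had signals of 1650.3 and 1573 in FOXC1 cells, against 935 and 973 in vector cells. The lower FOXC1 array was far above the higher vector array, and the rise was 1.68-fold (log2 0.75 ± 0.05 SE, limma adjusted p = 4.08e-10). NFKBIZ, which encodes the nuclear IkB-zeta, a cofactor for some NF-kB targets such as IL6, had 4057 and 3816 in FOXC1 cells, against 3097 and 3115 in vector cells. It rose 1.27-fold without overlap between the groups (log2 0.34 ± 0.04 SE, limma adjusted p = 2.57e-07).

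NFKBIA, which encodes IkB-alpha, the classical cytoplasmic inhibitor and a rapid feedback target, did not pass. It had 4672 and 4519 in FOXC1 cells, against 4792 and 4621 in vector cells, so that the groups overlapped. Its log2 change was -0.03 ± 0.03 SE (limma adjusted p = 0.47), with a 95% interval from -0.10 to 0.03. The interval of TNFAIP3, from 0.64 to 0.86, lay wholly above it, as did that of NFKBIZ, from 0.26 to 0.42. NFKBIA was not called under any of the 16 alternatives, with log2 changes between -0.08 and -0.01.

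BCL3 was the 1 gene of the 10 that fell. It encodes a nuclear IkB protein that binds p50 and p52 dimers and can act as a coactivator or a repressor. Its signals were 701 and 634 in FOXC1 cells, against 1366 and 1392 in vector cells, so that every FOXC1 array lay far below every vector array. It fell 2.04-fold (log2 -1.03 ± 0.06 SE, limma adjusted p = 2.26e-11). The change stood at the 99.1 percentile of absolute log2 change over all genes, against 98.3 for TNFAIP3 and 17.7 for NFKBIA.

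ICAM1 encodes a cell surface adhesion molecule that leukocytes bind through beta2 integrins, and its induction by cytokines through NF-kB is well known. Its signals were 3234 and 3185 in FOXC1 cells, against 845 and 865 in vector cells. Replicates differed by far less than the groups, with means of 3209.6 ± 34.7 in FOXC1 cells and 855 ± 14.0 in vector cells (SD, n = 2 each). The rise was 3.70-fold (log2 1.89 ± 0.05 SE, 95% interval 1.79 to 1.98, limma adjusted p = 5.72e-18), and it ranked 18 among the rises of all 18417 genes. Across the 16 alternatives its log2 change stayed between 1.83 and 1.91.

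**Figure D3:**
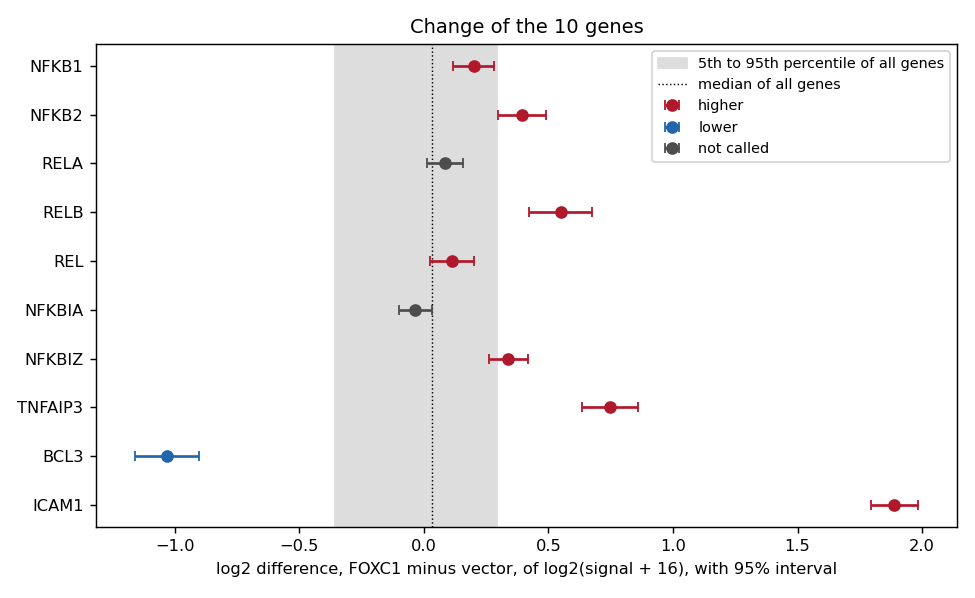
Log2 change (FOXC1 minus vector) with its 95% interval for the 10 genes, beside the 5th to 95th percentile of all genes (grey, -0.36 to 0.29) and their median (dotted, 0.03). ICAM1, TNFAIP3, RELB and NFKB2 lie to the right of the grey band with their whole intervals, BCL3 lies to its left, RELA, NFKBIA, REL and NFKB1 lie inside it, and NFKBIZ crosses its right edge.

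The neighbours of ICAM1 showed no change of its size. In the RefSeq gene order (GRCh38.p14) 2 members of the same family, ICAM4 and ICAM5, follow ICAM1 directly among the measured genes. ICAM5, a family member of neurons, had 1902 and 2008 in FOXC1 cells, against 1986 and 1969.6 in vector cells (log2 -0.02 ± 0.04 SE, limma adjusted p = 0.811). ICAM4, a red cell adhesion molecule, was dim at 221 and 213 in FOXC1 cells, against 205 and 224 in vector cells, below the 25th percentile of mean signal (277). The other measured neighbours, DNMT1, S1PR2, MRPL4 and FDX2, had log2 changes between -0.01 and 0.11. DNMT1 and MRPL4 passed in the main analysis, but their calls were lost in 6 and 5 of the 16 alternatives, without vector replicate 1 (adjusted p = 0.104 and 0.298) and without vector replicate 2 (0.102 and 0.0795) among them.

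Around BCL3 the picture was mixed. The measured genes on one side were PVR, CEACAM19 and CEACAM16, of which PVR, a nectin-like adhesion molecule, rose (log2 0.31 ± 0.03 SE, limma adjusted p = 7.98e-08). On the other side CBLC did not pass, while BCAM, a laminin receptor, and NECTIN2, an adhesion molecule, fell. BCAM had 472 and 385 in FOXC1 cells, against 690 and 665 in vector cells (log2 -0.65 ± 0.08 SE, limma adjusted p = 3.37e-06). NECTIN2 had 2740.2 and 2644 in FOXC1 cells, against 3436 and 3508 in vector cells (log2 -0.37 ± 0.04 SE, limma adjusted p = 9.79e-08). RELB lies on the same chromosome and rose.

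**Figure D4:**
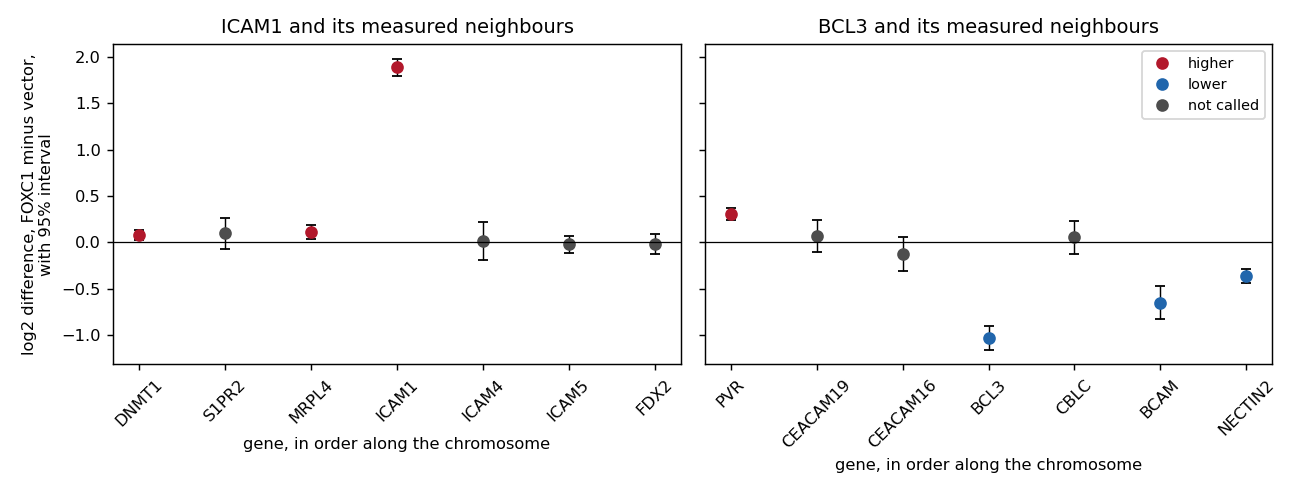
Log2 change (FOXC1 minus vector) with its 95% interval for ICAM1 (left) and BCL3 (right) and the 3 nearest measured genes on each side, in gene order and not to distance. ICAM1 stands at 1.89 with its neighbours between -0.02 and 0.11, whereas BCAM (-0.65) and NECTIN2 (-0.37) lie on the same side of 0 as BCL3 (-1.03).

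The 5 genes whose values over the 4 arrays lay nearest to those of ICAM1, by Euclidean distance of log2 values centred on each gene's mean, were SEMA5A (0.11), SHISA3 (0.14), CPA4 (0.17), PRR16 (0.20) and SLC7A2 (0.21). With 4 arrays in 2 groups this measures little beyond a group difference of like size. SEMA5A, a semaphorin of axon guidance, had 1674 and 1782 in FOXC1 cells, against 481 and 476 in vector cells. CPA4, a secreted carboxypeptidase, had 3082 and 2928 in FOXC1 cells, against 685 and 753 in vector cells.

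Genes of the rest of the pathway were counted in lists that exclude the 10 genes and that were drawn up with earlier results of these data known. Over all genes 15.9% were called higher and 15.5% lower. With probe sets below the 50th percentile of signal filtered out, 2474 of 9326 genes were higher and 2324 lower. No list was tested against these shares. Of 21 measured receptors that signal to NF-kB, 7 rose and 6 fell. The largest changes were rises in IL1RL1, the receptor of interleukin-33 (log2 4.55), and TLR4, the receptor of bacterial lipopolysaccharide, and falls in TLR3, which senses double-stranded RNA (log2 -0.96), the interleukin-1 receptor IL1R1 (log2 -0.55) and the tumour necrosis factor receptor TNFRSF1B (log2 -0.39). TLR4 had 4664 and 4724 in FOXC1 cells, against 1924 and 1814 in vector cells, a 2.50-fold rise without overlap (log2 1.32 ± 0.04 SE, limma adjusted p = 1.19e-16). The median of the list was 0.06. The number of rises was 4 without vector replicate 2 and in a fit over all rows, and that of falls was 3 above the 50th percentile of signal, where fewer genes were tested.

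Between receptors and IkB proteins the changes were smaller. Of 19 measured adaptors and ubiquitin ligases, 4 rose (MALT1, TRAF4, BIRC2 and TRAF3) and 4 fell, with CARD10 (log2 -0.24) the furthest down. The median was 0.00055, and 15.9% of all genes were called higher and 15.5% lower. MALT1, a paracaspase that cleaves A20 in lymphocytes, had 2757 and 2821 in FOXC1 cells, against 1758 and 1785 in vector cells (log2 0.65 ± 0.04 SE, limma adjusted p = 6.12e-11). TRAF3 and BIRC2, which together hold the kinase NIK low, rose by log2 0.24 and 0.28. Falls numbered 2 without vector replicate 1 and also without vector replicate 2.

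Of 14 measured genes listed with IKK and its upstream kinases, 6 rose and 4 fell, with a median of 0.07. These counts include TAB3, which rose, and TAB2, which fell, adaptors that are not kinases themselves. Among all genes 15.9% were called higher and 15.5% lower. Of the 9326 genes left by the filter at the 50th percentile of signal, 2474 were higher and 2324 lower. IKBKB, the catalytic subunit of IKK that acts on IkB-alpha, fell (log2 -0.29 ± 0.06 SE, limma adjusted p = 6.05e-04), with 1121 and 1019 in FOXC1 cells, against 1360 and 1259.8 in vector cells. Without a variance trend it did not pass (adjusted p = 0.0542). IRAK2 (log2 -0.50) and RIPK2 (log2 -0.24), kinases below interleukin-1 and NOD receptors, fell as well. The regulatory subunit IKBKG (log2 0.24) and MAP3K14, which encodes NIK, the kinase of the alternative pathway (log2 0.20), rose. Neither passed in a fit over all rows (limma adjusted p = 0.0685 and 0.0521), nor did MAP3K14 with median centring (0.0717). The call of IKBKG was lost without vector replicate 1 (adjusted p = 0.307), and that of MAP3K14 without FOXC1 replicate 1 (0.0687), vector replicate 1 (0.117) or vector replicate 2 (0.0795), and both were also lost without a variance trend (0.112 and 0.0616). The rises of this list numbered 3 without FOXC1 replicate 1, 1 without vector replicate 1, 1 without vector replicate 2, 1 with median centring, 2 over all rows and 0 without a variance trend.

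Of 22 further genes listed as inhibitors and brakes of the pathway, all measured, 4 rose and 7 fell. Their median was -0.02, and 15.9% of all genes were called higher and 15.5% lower. The falls were led by PDLIM2, a nuclear ubiquitin ligase for RELA (log2 -0.43), N4BP1 (log2 -0.41), TNFAIP8 (log2 -0.41) and NLRC5 (log2 -0.34). TNFAIP8 is counted in this list but is not an established inhibitor of the pathway. ZC3H12A, an RNase that degrades inflammatory messages, rose (log2 0.33 ± 0.05 SE, limma adjusted p = 8.66e-06). Picked after their values were seen, the IkB genes NFKBIE and NFKBIB rose too, by log2 0.30 and 0.21, with NFKBIE at 1248 and 1161 in FOXC1 cells, against 997 and 954 in vector cells. Falls numbered 4 without a variance trend.

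Effector targets of NF-kB moved both ways, with 12 of 39 higher, 11 lower and a median of 0.03. Of all genes 15.9% were called higher and 15.5% lower. The chemokines CXCL1 (log2 1.16), CXCL8 (log2 1.12) and CCL20 (log2 1.81) rose, the last on a dim probe set with 147 and 176 in FOXC1 cells, against 33.4 and 35.8 in vector cells. Adding 1 in place of 16 before log2 gave CCL20 a change of 2.19, and adding 64 gave 1.19. IRF1, an interferon response factor, had 928 and 812 in FOXC1 cells, against 1760.0 and 1674 in vector cells, and fell (log2 -0.97 ± 0.06 SE, limma adjusted p = 5.06e-11). The cytokine IL1A fell as well (log2 -1.06 ± 0.09 SE, limma adjusted p = 3.13e-09). SOD2, a mitochondrial enzyme often used as a readout of the pathway and named here after its values were seen, did not pass (log2 0.05 ± 0.04 SE, limma adjusted p = 0.45).

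**Figure D5:**
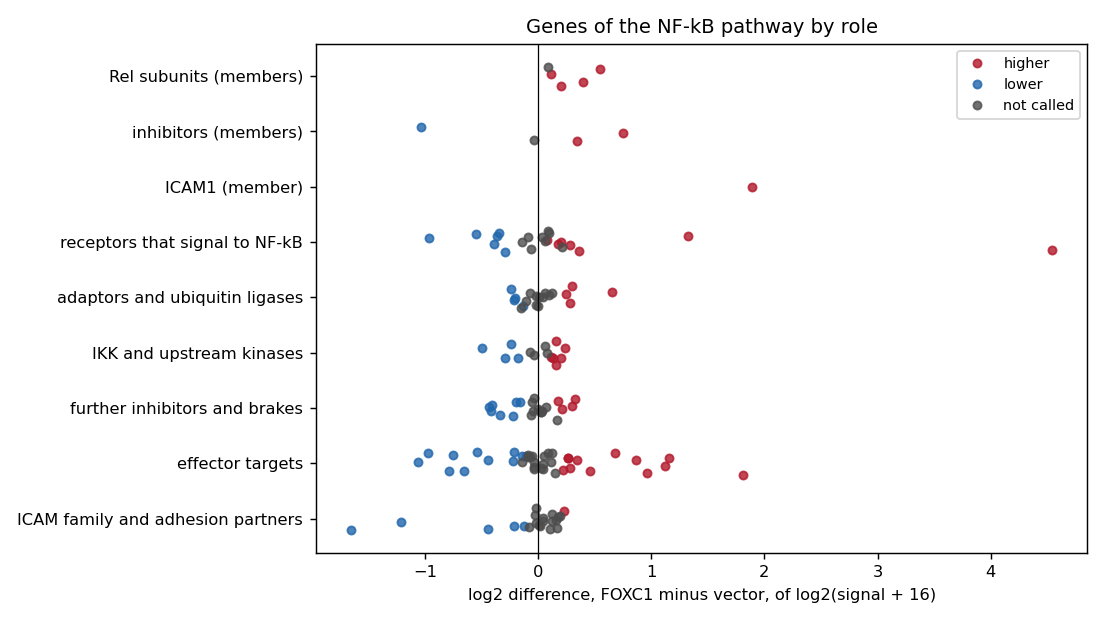
Log2 change (FOXC1 minus vector) of each measured gene, by role, with the 10 genes in the top 3 rows and the wider lists below; colour gives the call at an adjusted p of 0.05 and vertical scatter is for display. Rises and falls stand side by side in every wider list, such as 12 and 11 among 39 effector targets.

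Other adhesion molecules were counted next. Of 21 measured genes of the ICAM family and its partners, 1 rose, the hyaluronan receptor CD44 (log2 0.23), and 5 fell, with a median of 0.02, where 15.9% of all genes were called higher and 15.5% lower. ICAM2, a relative of ICAM1 known from endothelium, had 536 and 626 in FOXC1 cells, against 1399.7 and 1325 in vector cells, and fell 2.31-fold (log2 -1.21 ± 0.07 SE, limma adjusted p = 1.17e-11). PECAM1, another endothelial adhesion molecule, had 249 and 245 in FOXC1 cells, against 719 and 914 in vector cells, and fell (log2 -1.65 ± 0.09 SE, limma adjusted p = 9.60e-12). Its change was log2 -0.73 when the probe sets of the gene were averaged. ICAM2 and PECAM1 both lie on chromosome 17, and whether their falls are separate events was not tested. RDX (log2 -0.44), which links membrane proteins to actin, and CD47 (log2 -0.21) fell by less, as did MSN, a relative of RDX (log2 -0.12), which was named after its value was seen. VCAM1, SELE and SELP, adhesion molecules of stimulated endothelium named after their values were seen, lay below the 25th percentile of signal in both groups and did not pass. Rises in this list numbered 2 without FOXC1 replicate 1.

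Markers were read for the label and for other cells. As a reference for these counts, 15.9% of all genes were called higher and 15.5% lower. Brighter genes were called more often: above the 50th percentile of signal, 2474 of 9326 genes were higher and 2324 lower. No marker list was tested against these shares. Of 10 markers of the line, 6 were lower in FOXC1 cells, VIM among them, and CD44 and EGFR were higher, with a summed signal of 90836 to 91047 in FOXC1 cells and 96488 to 97614 in vector cells. VIM had 16017 and 16478 in FOXC1 cells, against 16740 and 17018 in vector cells (log2 -0.06 ± 0.02 SE, limma adjusted p = 0.0472), and SPARC was below the 25th percentile in both groups. Of 7 luminal markers listed as low in this line, ESR1 and PGR were below that percentile, while KRT19, ERBB2, EPCAM and GATA3 were not. CDH1 lay at the percentile (277), with means of 280 in FOXC1 cells and 274 in vector cells. GATA3, KRT19 and EPCAM (log2 -0.58) fell, and the 7 summed to 6991 to 7258 in FOXC1 cells and 8285 to 8407 in vector cells. Of 9 measured leukocyte markers 6 were below the 25th percentile in both groups, and the 9 summed to 1973 to 2115 in FOXC1 cells and 1900.1 to 2012 in vector cells. PTPRC, the general leukocyte marker, was dim but higher, at 93.9 and 93.5 in FOXC1 cells, against 62.6 and 63.5 in vector cells (log2 0.47 ± 0.13 SE, limma adjusted p = 0.00634). Of 7 endothelial markers PECAM1, TIE1 and ESAM fell and the other 4 did not pass, and the 7 summed to 6887 to 7137 in FOXC1 cells and 8553 to 8590 in vector cells. Of 7 fibroblast markers DCN, which was dim, rose (log2 0.63 ± 0.12 SE, limma adjusted p = 1.86e-04), and the 7 summed to 2159 to 2258 in FOXC1 cells and 2090.2 to 2138 in vector cells. No marker was listed at 0, and the part of these differences in the results above was not tested. The median signal of an array was 499 to 512 in FOXC1 cells and 489 to 492 in vector cells, and in a bulk sample fewer cells that express a gene and less RNA per cell cannot be told apart.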

How the data were processed

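Gene expression was measured on 4 Affymetrix HuGene-1_0-st-v1 arrays, 2 of FOXC1 cells and 2 of vector cells, from 100 ng of total RNA each. Per the labels and the submitters' processing notes, the authors made 1 gene-level value per probe set with PLIER in Affymetrix Expression Console. As deposited, this PLIER signal is a linear intensity. The sources used here do not give its normalization options, background step or versions. On each array 2.67% to 2.92% of the 33297 probe sets were under 16, so 16 was added before log2, which shrinks changes of dim genes.

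The 21214 probe sets with a gene symbol entered 1 two-sided limma fit (lmFit and trended eBayes; limma 3.58.1, R 4.3.3) with 2 residual and 18.1 prior degrees of freedom. Benjamini-Hochberg adjustment ran over all of them, with a threshold of 0.05. Gene counts use the brightest probe set of each of 18417 genes. Symbols come from the platform annotation, and neighbours and promoters from RefSeq (GRCh38.p14). Arrays have no read depth, and precision is limited by their number. The labels call the arrays biological replicates without saying what was replicated, so the spread between these arrays may be technical. With 18.1 prior against 2 residual degrees of freedom, each SE and p-value draws mostly on the spread of probe sets of like signal. They draw less on the spread of the gene's own arrays.

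The 10 genes, the wider lists and the tests were chosen with earlier results of these data known. Named genes are all 10, up to 5 called genes with the largest change per list, the 5 genes nearest to ICAM1 and 3 neighbours on each side of genes with an absolute log2 change of at least 1. A few others are marked where they are named as picked after their values were seen. Alternatives were filters on dim probe sets at the 25th or 50th percentile, an offset of 1 or 64, quantile normalization, median centring, no variance trend, robust moderation, a replicate block, leaving out each array, averaged probe sets, all rows and a threshold of 0.10. Listed genes without a probe set of 1 symbol were not analysed here.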

Additional observations from a re-analysis of the deposited data

How the results depend on the processing

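ICAM1, TNFAIP3, RELB, NFKB2, NFKB1, NFKBIZ and BCL3 kept their direction and their call under all 16 alternatives, and NFKBIA was called under none. The log2 change of ICAM1 ran from 1.83 (offset of 64) to 1.91 (offset of 1), and from 1.87 to 1.91 with 1 array left out. That of BCL3 ran from -1.10 to -0.96, that of TNFAIP3 from 0.71 to 0.78 and that of RELB from 0.50 to 0.60. The number of the 10 genes called higher was between 6 and 8, set by REL and RELA alone, and 1 was called lower under each alternative. The cause of the changes in REL and RELA was not tested, except that filters test fewer genes and leaving out an array uses fewer arrays. Same-numbered arrays did not deviate together across probe sets (correlation -0.015). That value cannot show whether they were paired, since it rests on 2 arrays per group. With the replicate number as a block 8 of the 10 genes were higher, RELA added, ICAM1 was at 1.89, and the calls over all genes were 3339 higher and 3099 lower, against 2925 and 2852. Median centring gave 1739 higher and 3396 lower, a fit without a variance trend 1461 and 1790, a fit over all rows 1858 higher, and leaving out vector replicate 2 1913 higher. With 2 arrays per group an exact test of a single gene cannot go below p = 0.333.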
